A study of Homo sapiens with 12 samples.

Results

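The genes described here, 10 in number, belong to the immunoproteasome and to peptide loading: PSMB8, PSMB9, PSMB10, PSME1, PSME2, TAP1, TAP2, TAPBP, NLRC5 and IRF1. They were taken by symbol, as a set with a shared known function, and each was present once among the 59050 gene rows of both count tables. Poly-A RNA had been sequenced from A549 and NCI-H1299 (H1299), human lung cancer lines, in 12 libraries: 3 from wild-type A549, 3 from PA200 knockout A549, 3 from wild-type H1299 and 3 from PA200 knockout H1299. The knockouts were made with CRISPR/Cas9 in the gene PSME4, whose product PA200 is a nuclear cap of the proteasome core. Cells of all 4 groups were cultured for 48 h, and the labels name no cytokine or other treatment. The labels do not say whether the knockout cells are single clones or whether the 3 libraries of a group are separate cultures, so p-values measure only the spread between these libraries. Replicate numbers given here follow the order in which the samples of a group are listed. They are not in the labels and do not pair libraries between groups.

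Proteasomes cut proteins into peptides, and some of these peptides are carried into the endoplasmic reticulum and bound by MHC class I molecules for display to T cells. Interferon-gamma switches on the inducible catalytic subunits LMP7 (PSMB8), LMP2 (PSMB9) and MECL1 (PSMB10), which take the places of PSMB5, PSMB6 and PSMB7 in newly built proteasomes. It also induces the PA28 cap (PSME1 and PSME2), the TAP transporter (TAP1 and TAP2) and tapasin (TAPBP), which holds class I molecules at the transporter. The transcription factor IRF1 and the class I transactivator NLRC5 act on the promoters of many of these genes.

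The promoters of PSMB9 and TAPBP, the genes called in H1299, are shown first, with that of IRF1, which lay below wild type there without overlap but was not called, and that of TAP1, which was not called and starts close to PSMB9. Interferon elements are marked in them because interferon is the known inducer of these genes. RefSeq (GRCh38.p14) holds windows from 250 bases before to 50 bases after the annotated start for 9 of the 10 genes, 11 windows in all because PSMB8 and TAP1 have 2 starts each. NLRC5 was not among them. The windows below belong to PSMB9 (chr6:32853942-32854241, plus strand), TAP1 (its upstream start, chr6:32853655-32853954, minus strand), TAPBP (chr6:33314029-33314328, minus strand) and IRF1 (chr5:132490724-132491023, minus strand). Each is printed 5′ to 3′ in the direction of transcription, with matches to the core of the interferon-stimulated response element (ISRE, 2 copies of GAAA with any 2 bases between them) and to the gamma-activated sequence (GAS, TTCNNNGAA) in capitals.
PSMB9: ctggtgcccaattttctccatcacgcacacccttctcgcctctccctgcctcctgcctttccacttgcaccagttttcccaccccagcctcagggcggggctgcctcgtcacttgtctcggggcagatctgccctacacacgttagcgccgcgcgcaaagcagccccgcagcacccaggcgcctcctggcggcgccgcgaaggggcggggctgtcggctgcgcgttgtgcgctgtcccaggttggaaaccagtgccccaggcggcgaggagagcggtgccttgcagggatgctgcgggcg
TAP1: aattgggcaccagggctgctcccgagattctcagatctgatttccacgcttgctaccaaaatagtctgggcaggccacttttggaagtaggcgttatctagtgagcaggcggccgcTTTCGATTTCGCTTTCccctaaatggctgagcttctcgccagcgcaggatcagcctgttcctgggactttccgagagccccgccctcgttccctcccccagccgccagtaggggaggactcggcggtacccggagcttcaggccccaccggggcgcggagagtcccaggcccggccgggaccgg
TAPBP: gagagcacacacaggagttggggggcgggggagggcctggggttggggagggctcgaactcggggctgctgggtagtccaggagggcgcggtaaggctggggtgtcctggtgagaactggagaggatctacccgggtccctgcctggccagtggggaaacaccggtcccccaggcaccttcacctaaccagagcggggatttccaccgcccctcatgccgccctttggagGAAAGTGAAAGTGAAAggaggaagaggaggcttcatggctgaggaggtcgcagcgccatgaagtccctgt
IRF1: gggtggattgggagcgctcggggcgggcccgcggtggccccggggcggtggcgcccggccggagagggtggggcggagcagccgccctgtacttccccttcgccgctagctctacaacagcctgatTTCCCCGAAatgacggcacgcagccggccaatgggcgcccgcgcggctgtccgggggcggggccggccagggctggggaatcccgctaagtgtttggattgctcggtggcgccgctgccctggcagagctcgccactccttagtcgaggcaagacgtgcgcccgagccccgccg

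Searched on both strands, the ISRE core was present in the windows of 7 of the 9 genes (PSMB8, PSMB10, PSME1, PSME2, TAP1, TAP2 and TAPBP). Counted by window, it was present in 7 of their 11 windows and in 3.57% of the 35116 windows of all genes. TAP1 and TAPBP each held 2 overlapping copies, 128 to 119 and 134 to 125 bases before the start in TAP1, and 20 to 11 and 14 to 5 bases before it in TAPBP. The GAS motif was present in IRF1, PSMB8 and TAP1 (3 of the 11 windows) and in 7.66% of all windows. The TAP1 match lay in the window of its downstream start, which is not printed. A kappaB motif was present in IRF1, TAP1 and TAPBP (3 of the 11 windows) and in 11.3% of all windows. CCAAT, the box read by NF-Y, was present in IRF1, PSMB9 and TAP1 (3 of the 11 windows) and in 34.6% of all windows. PSMB9 held neither the ISRE core nor GAS in this window. The RefSeq starts of PSMB9 and of the upstream TAP1 promoter lie on opposite strands, 488 bases apart. The 2 ISRE copies of TAP1 lie between these starts, outside the PSMB9 window. A match is only a run of letters and no binding was measured here. The ISRE matches of the remaining genes are shown within 30 bases, because their copies are nearly identical: TAP2 (chr6:32838778-32838807), PSMB8 (chr6:32844032-32844061), PSMB10 (chr16:67936852-67936881) and PSME2 (chr14:24146619-24146648) on the minus strand, and PSME1 (chr14:24136189-24136218) on the plus strand.
TAP2: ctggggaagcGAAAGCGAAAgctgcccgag
PSMB8: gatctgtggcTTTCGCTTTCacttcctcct
PSMB10: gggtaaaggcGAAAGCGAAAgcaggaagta
PSME2: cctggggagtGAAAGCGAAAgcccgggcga
PSME1: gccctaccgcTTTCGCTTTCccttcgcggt

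The libraries held 16599401 to 40983933 counts, and in A549 the knockout libraries (30645131 to 40983933) were all deeper than the wild-type ones (16599401 to 21112339), a difference whose part in the A549 values was not tested. PSME4 RNA fell to 11.5% of wild type in A549 and to 21.7% in H1299, by 3.13 and 2.2 on the log2 scale (adjusted p = 0.00109 and 7.35e-06), and the part of the gene that was edited is not given in the labels. Leukocytes carry immunoproteasomes without stimulation, and of 10 leukocyte markers PTPRC and CD3E had 0 counts in every library, and the whole list summed to at most 22.8 CPM (counts scaled to library size) in any library. The epithelial markers EPCAM, KRT8, KRT18, KRT19 and CDH1 summed to 2603 to 5489 CPM in A549 and to 131.0 to 395.9 CPM in H1299, where EPCAM, KRT19 and CDH1 were near 0. CDKN2A, deleted in A549, had 0 counts in all 6 A549 libraries.

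In A549, PA200 loss was followed by no change that passed the test among the 10 genes, while 2.14% of all genes tested did change. At an unadjusted p under 0.05 there were 2 (PSMB9 and NLRC5), and DESeq2 called the same 2. A gene is said here to have risen or fallen, or to be called, when its Benjamini-Hochberg adjusted p in edgeR's quasi-likelihood test was under 0.05. The log2 fold changes of the 10 genes, knockout over wild type, had a median of 0.05 against -0.01 over all genes, with 5 positive and 5 negative. In H1299, 2 of the 10 genes fell, PSMB9 and TAPBP, where 4.18% of all genes fell and 8.84% changed in either direction. At an unadjusted p under 0.05 there were 4 in H1299, and DESeq2 called 3 (PSMB9, TAPBP and IRF1). All 10 log2 fold changes were negative in H1299, with a median of -0.20 against -0.00 over all genes. The difference between the lines passed the test for NLRC5 alone, lower in H1299, where 1.52% of all genes were called in that direction and 3.48% in either.

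**Figure D1:**
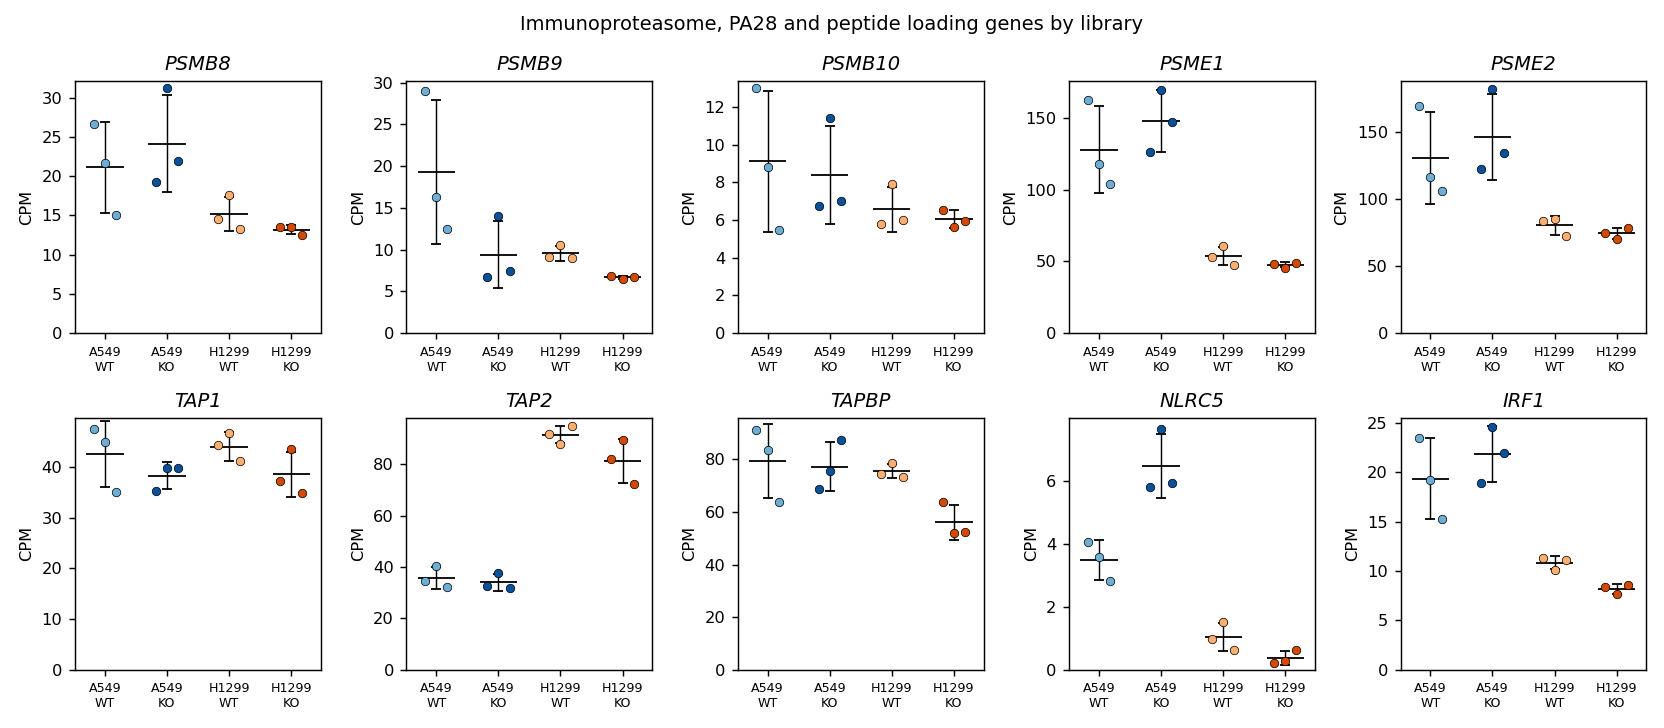
Level of each of the 10 genes in each library, in CPM on axes that start at 0. Points are libraries, horizontal lines the mean of 3 libraries and error bars the SD. In H1299 the knockout libraries of PSMB9, TAPBP and IRF1 lie below all wild-type libraries, in A549 only NLRC5 separates the genotypes, upwards, and the 3 A549 wild-type libraries spread widely for most genes.

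Among the catalytic subunits, PSMB9 changed most with PA200 loss. LMP2, its product, is the inducible subunit that replaces PSMB6 and removes the cleavage after acidic residues. The 3 wild-type H1299 libraries held 9.13, 10.6 and 8.98 CPM of PSMB9 and the knockout libraries 6.87, 6.48 and 6.72 CPM. The genotypes did not overlap, which 14.5% of all genes showed in that direction. In bulk RNA, fewer expressing cells and less RNA per cell cannot be told apart. PSMB9 RNA fell to 69.9% of wild type in H1299, a log2 fold change of -0.52 (SE 0.12, adjusted p = 0.0285 in edgeR's quasi-likelihood test). In A549 the wild-type libraries held 28.95, 16.26 and 12.49 CPM and the knockout libraries 6.67, 14.0 and 7.45 CPM. Here the groups overlapped: knockout replicate 2 lay above wild-type replicate 3. The log2 fold change in A549 was -1.05 (SE 0.37, adjusted p = 0.176), and DESeq2 gave an adjusted p of 0.0493 for it. Leaving out 1 library moved the A549 value between -1.45 and -0.62, with adjusted p from 0.0881 to 0.437. The 2 effects did not differ detectably (difference 0.52, SE 0.43, adjusted p = 0.577), and their average was -0.78 (SE 0.21, adjusted p = 0.0593), a comparison in which 4.31% of all genes were called and none of the 10 (2 at an unadjusted p under 0.05 and 1 by DESeq2, this gene).

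The H1299 call of PSMB9 lay close to the threshold. It was kept when wild-type replicate 1 was left out (adjusted p = 0.0406). Leaving out wild-type replicate 2 or 3 (0.0897 and 0.061) or knockout replicate 1, 2 or 3 (0.0543, 0.0838 and 0.104) ended it, at log2 fold changes of -0.56 to -0.44. The call was also lost when the log2 values were centred on the median of the chromosome arm (-0.47, adjusted p = 0.0664) and in 1 fit over all 12 libraries (-0.52, adjusted p = 0.463). The annotated gene is also crowded. In GENCODE 29 (GRCh38) PSMB9 spans chr6:32844136-32859585 on the plus strand, covers all 8770 bases of TAP1 on the other strand and shares 2360 bases with the non-coding PSMB8-AS1 on its own strand. With the PSMB8-AS1 counts added, the log2 fold change was -0.36 in H1299 (adjusted p = 0.0694) and the call was lost. PSMB8-AS1 itself had a log2 fold change of -0.27 there (SE 0.13, adjusted p = 0.254).

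The other inducible subunits, PSMB8 and PSMB10, did not pass the test in either line. PSMB8, whose product LMP7 cuts after hydrophobic residues, was at 26.6, 21.7 and 15.1 CPM in wild-type A549 and 19.31, 31.25 and 21.99 CPM in the knockout. In H1299 it was at 14.6, 17.6 and 13.3 CPM in wild type and 13.51, 13.53 and 12.52 CPM in the knockout. The genotypes overlapped in both lines, with log2 fold changes of 0.18 for A549 (SE 0.24, adjusted p = 0.728) and -0.21 for H1299 (SE 0.12, adjusted p = 0.323). PSMB10, which encodes the trypsin-like inducible subunit, ranged from 5.49 to 12.99 CPM in wild-type A549 and 6.77 to 11.4 CPM in the knockout, and from 5.79 to 7.94 and 5.65 to 6.55 CPM in H1299. Its log2 fold changes were -0.13 (SE 0.33) and -0.12 (SE 0.15), and it overlaps AC040162.1 by 1516 bases on the same strand.

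How far the inducible subunits stood below the ones they replace was taken as a ratio within each library, per transcript length, which does not depend on how libraries are scaled. Per length, PSMB8 stood at 11.5% ± 2.0 (SD, n = 3) of PSMB5 in wild-type A549 and 15.3% ± 2.93 in the knockout, and at 10.7% ± 1.46 and 9.68% ± 0.805 in H1299. PSMB9 stood at 8.02% ± 1.94 of PSMB6 in wild-type A549 and 5.29% ± 1.85 in the knockout, and at 3.93% ± 0.407 and 3.14% ± 0.135 in H1299. PSMB10 stood at 3.29% ± 0.881 and 3.54% ± 0.79 of PSMB7 in A549, and at 1.84% ± 0.417 and 1.55% ± 0.212 in H1299. So in every group RNA of the standard subunits was far more abundant than RNA of the inducible ones. The percentages depend on the transcript length taken. Over all annotated exons, wild-type A549 held 7.04 RPKM (CPM per kilobase) of PSMB8 against 119.0 of PSMB5. It held 6.26 of PSMB9 against 174.9 of PSMB6, and 4.92 of PSMB10 against 121.8 of PSMB7. Counts of the same-strand genes PSMB8-AS1 and AC040162.1 were not added in these ratios. Of the 3 ratios only PSMB9 to PSMB6 had a lower mean in the knockout in both lines. In H1299 all 3 of its knockout ratios (3.29%, 3.02% and 3.10%) lay below all 3 wild-type ratios (3.51%, 4.33% and 3.95%), which gave p = 0.1 in a two-sided exact permutation test, the smallest that 3 against 3 libraries allow. Within both lines together the ratio was lower by a log2 difference of -0.47 (exact permutation p = 0.025 of 400 arrangements), and adjusted over the 3 ratios p was 0.075, above the threshold.

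**Figure D2:**
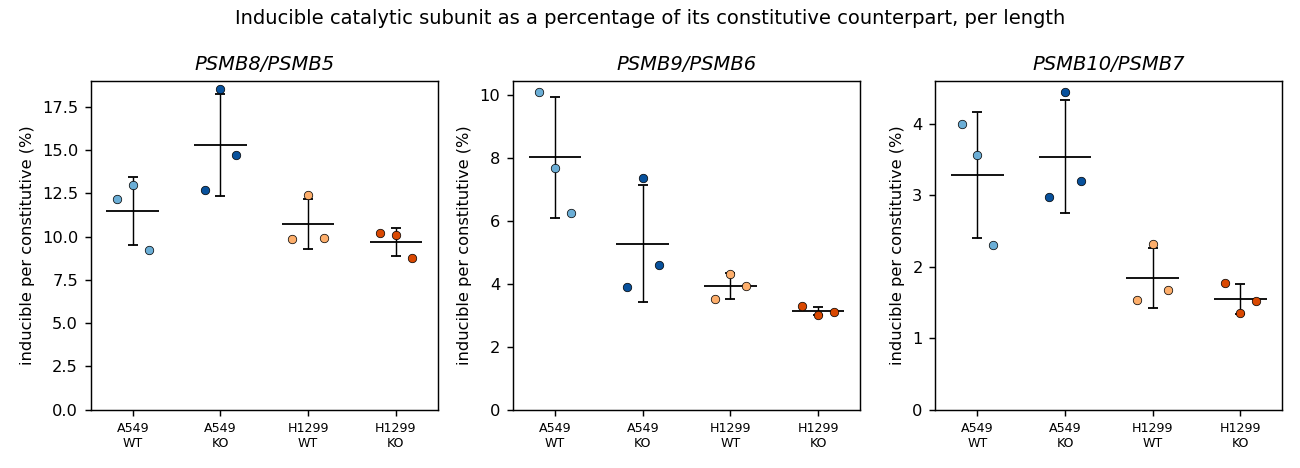
Inducible subunit as a percentage of its constitutive counterpart per transcript length, on axes that start at 0. Points are libraries, horizontal lines means and error bars the SD of 3 libraries. The PSMB9 to PSMB6 percentage is lower in knockout than in wild-type H1299 without overlap, and every ratio stays under 20%.

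The constitutive subunits themselves were not called in either line by edgeR or DESeq2, with 1 of 3 at an unadjusted p under 0.05 in each. That gene, PSMB6, was below wild type without overlap in both lines, with 312.4, 230.2 and 217.2 CPM in wild-type and 186.7, 206.5 and 177.0 CPM in knockout A549, and 283.0, 266.6 and 247.8 against 227.7, 233.4 and 235.9 CPM in H1299. In H1299, 14.5% of all genes lay below wild type without overlap, and the share for A549 is not given here. The log2 fold changes of PSMB6 were -0.43 for A549 (SE 0.16, adjusted p = 0.193) and -0.19 for H1299 (SE 0.07, adjusted p = 0.106). The ratio of PSMB9 to PSMB6 was therefore lower although its denominator was lower too. PSMB5 had log2 fold changes of -0.23 in A549 and -0.05 in H1299, and PSMB7 of -0.22 and 0.14, with libraries of the genotypes overlapping in both lines. For the average effect of both lines, edgeR called 0 of the 3 constitutive subunits and DESeq2 called 1. Of the 7 assembly factors and other caps (POMP, PSMG1 to PSMG4, PSME3 and PSME4), only PSME4 was called in each line.

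PSME1 and PSME2, the alpha and beta subunits of the PA28 cap that competes with PA200 for the ends of the core, did not pass the test in either line. PSME1 was at 162.4, 117.7 and 104.0 CPM in wild-type A549 and 126.5, 169.6 and 147.3 CPM in the knockout, and at 52.8, 60.4 and 47.7 against 48.5, 45.5 and 49.0 CPM in H1299. PSME2 was at 170.1, 116.5 and 106.5 CPM in wild-type A549 and 122.4, 182.8 and 134.8 CPM in the knockout, and at 83.6, 85.1 and 72.6 against 74.8, 70.6 and 78.8 CPM in H1299. Wild type and knockout overlapped in all 4 cases. The log2 fold changes of PSME1 were 0.19 for A549 (SE 0.19, adjusted p = 0.616) and -0.17 for H1299 (SE 0.09, adjusted p = 0.285), and those of PSME2 were 0.15 (SE 0.21) and -0.11 (SE 0.08). Both genes lie on 14q within a few kilobases of each other, PSME1 at chr14:24136158-24138967 and PSME2 at chr14:24143362-24147570 on opposite strands. Their library-to-library values moved in the same order in A549. That order was not particular to the pair, since PSMB8, PSMB9, PSMB10, NLRC5 and IRF1, on other chromosome arms, showed it too.

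Of the transporter and its partner, only tapasin changed. TAPBP was at 74.6, 78.5 and 73.4 CPM in wild-type H1299 and at 63.7, 51.9 and 52.4 CPM in the knockout. All knockout libraries lay below all wild-type libraries. TAPBP RNA fell to 74.3% of wild type, a log2 fold change of -0.43 (SE 0.09, adjusted p = 0.0247). In A549 it was at 91.0, 83.7 and 63.6 CPM in wild type and 68.9, 75.4 and 87.3 CPM in the knockout, which overlapped, with a log2 fold change of -0.06 (SE 0.16, adjusted p = 0.884). The effects of the lines did not differ past the threshold (-0.39, SE 0.20, adjusted p = 0.317). The H1299 call was kept when replicate 1 of either genotype was left out (adjusted p = 0.0367 for wild type and 0.0131 for knockout). It was lost when wild-type replicate 2 or 3 (0.0545 and 0.0662) or knockout replicate 2 or 3 (0.0838 and 0.105) was, and the values ran from -0.54 to -0.38. The fit over all 12 libraries also ended it (-0.43, adjusted p = 0.134).

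TAP1 and TAP2, the subunits of the transporter, were not called in either line. TAP1 was at 47.4, 44.9 and 35.1 CPM in wild-type A549 and 35.2, 39.8 and 39.8 CPM in the knockout, and at 44.4, 46.6 and 41.1 against 37.3, 43.5 and 34.9 CPM in H1299. TAP2 was at 34.6, 40.4 and 32.2 CPM in wild-type A549 and 32.5, 37.8 and 31.9 CPM in the knockout, and at 91.7, 87.9 and 94.7 against 82.0, 89.5 and 72.4 CPM in H1299. The genotypes overlapped throughout, also for TAP1, whose promoter faces that of PSMB9. The log2 fold changes of TAP1 were -0.16 (SE 0.14) and -0.19 (SE 0.10, adjusted p = 0.255), and those of TAP2 -0.09 (SE 0.14) and -0.17 (SE 0.09, adjusted p = 0.281), each in A549 and then H1299. TAP2 lies within AL669918.1, a gene model on the same strand over all of its 16948 bases, so some of its reads may have been counted elsewhere. Within 500 kb of TAP1, in the class II region of the MHC, no gene of 27 tested was called in A549, and the 2 of 29 that fell in H1299 were PSMB9 and TAPBP themselves, where 4.18% of all genes fell and the median log2 fold change of the 29 was -0.17.

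NLRC5 was the gene whose response differed between the lines. Its product binds the class I promoters through RFX and NF-Y proteins and switches on class I genes, TAP1 and PSMB9. In A549 it was at 4.04, 3.59 and 2.80 CPM in wild type (64, 73 and 50 counts) and at 5.80, 7.62 and 5.93 CPM in the knockout (173, 227 and 238 counts). Every knockout library was higher, which 13.5% of all genes showed in that direction. In H1299 it was at 0.959, 1.52 and 0.623 CPM in wild type (29, 53 and 14 counts) and at 0.227, 0.289 and 0.628 CPM in the knockout (7, 7 and 20 counts). The H1299 groups met at their edges, since knockout replicate 3 just exceeded wild-type replicate 3. The log2 fold changes were 0.88 for A549 (SE 0.22, adjusted p = 0.0779) and -1.44 for H1299 (SE 0.44, adjusted p = 0.0733), neither past the threshold. Without the low-count filter both passed it (0.0464 and 0.00245), and DESeq2 called the A549 change (0.0112) but not the H1299 one. With 1 library left out, neither was called in any of 6 fits per line. Adjusted p then ran from 0.0866 to 0.214 in A549 and from 0.0664 to 0.223 in H1299. The difference of the 2 effects passed the test, at -2.33 (SE 0.50, adjusted p = 0.0245). It stayed under the threshold in 8 of 12 fits that left out 1 library and was lost without A549 knockout replicate 2 (adjusted p = 0.05), H1299 wild-type replicate 2 (0.0727, at -1.93) and H1299 knockout replicates 1 and 2 (0.0691 and 0.074).

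The epithelial markers, like NLRC5, stood higher in knockout A549 (5 of 5 log2 fold changes positive, 1 called) and lower in knockout H1299 (both tested markers called), and their part in the NLRC5 result was not tested. The sum of the 5 markers was 2603 to 4869 CPM in wild-type and 4967 to 5489 CPM in knockout A549, and 255.4 to 395.9 CPM in wild-type and 131.0 to 196.5 CPM in knockout H1299. KRT19 rose in A549 (log2 fold change 2.15, SE 0.32, adjusted p = 0.0247), and KRT8 and KRT18 fell in H1299 (-1.03 and -0.83, adjusted p = 0.0243 and 0.0172). Of 9 partners of NLRC5 at the promoter (RFX5, RFXAP, RFXANK, NFYA, NFYB, NFYC, CREB1, ATF1 and the class II counterpart CIITA) none was called in either line or for the difference by edgeR. At an unadjusted p under 0.05 there were 1 in A549, 2 in H1299 and 1 for the difference, and DESeq2 called 1 in H1299.

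IRF1, the interferon-induced factor that binds the ISRE, was at 11.3, 10.1 and 11.1 CPM in wild-type H1299 and at 8.39, 7.63 and 8.54 CPM in the knockout. The genotypes did not overlap, and the log2 fold change of -0.40 (SE 0.11, adjusted p = 0.0531) just missed the threshold. DESeq2 and a filter at 1 CPM in 3 libraries put it under the threshold (0.0388 and 0.0462). With 1 library left out, it was called in 0 of 6 fits, at adjusted p from 0.0711 to 0.145 (log2 fold changes -0.45 to -0.36). In A549 IRF1 was at 23.5, 19.2 and 15.3 CPM in wild type and 18.9, 24.6 and 21.9 CPM in the knockout, overlapping, with a log2 fold change of 0.16 (SE 0.19, adjusted p = 0.683). The difference between the lines was -0.58 (SE 0.22, adjusted p = 0.173). IRF1 lies inside AC116366.3 and shares 7094 bases with C5orf56, both on the other strand, and the median of its arm, 5q, was -0.11 in H1299.

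**Figure D3:**
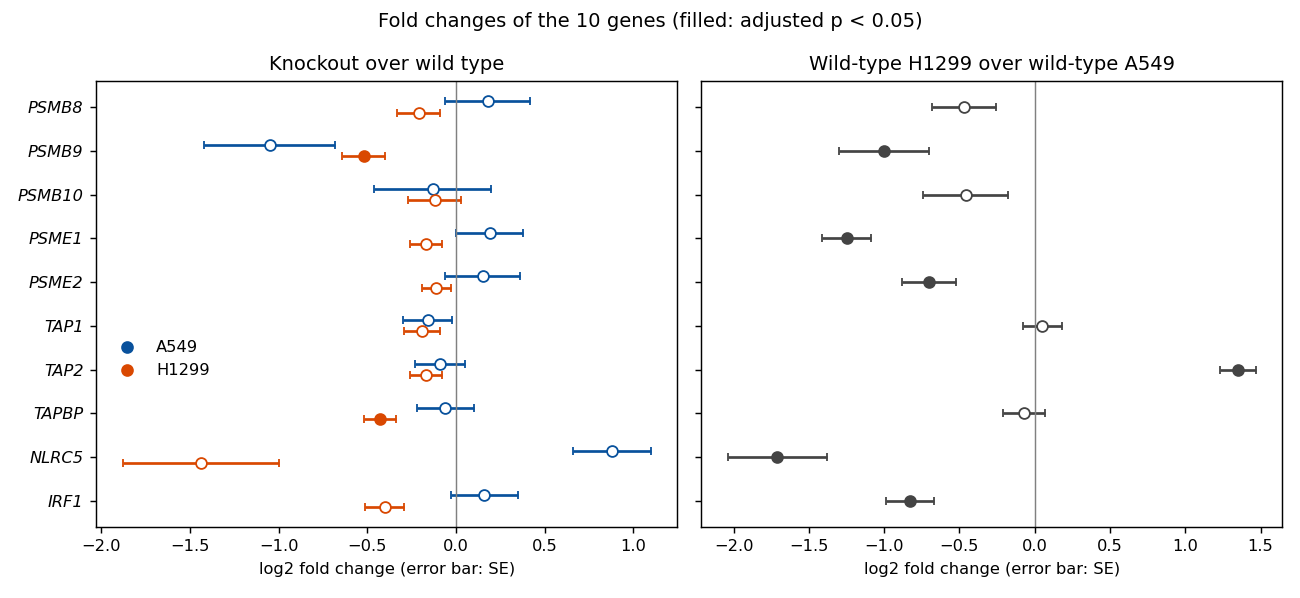
Log2 fold change of each of the 10 genes with its SE, for knockout over wild type in both lines (left) and for wild-type H1299 over wild-type A549 (right). Filled points have an adjusted p under 0.05. In H1299 all 10 points lie below 0 and 2 are filled, in A549 none is filled, and between the wild types 5 genes are filled on the lower side and TAP2 on the higher.

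Much of the spread in A549 was shared by the 10 genes. Within wild-type A549, replicate 1 was the highest library for 9 of the 10 genes and replicate 3 the lowest for all 10, where 40.7% and 34.5% of all genes had those extremes. Within knockout A549, replicate 2 was the highest for 8 and replicate 1 the lowest for 9, against 39.8% and 35.6% of all genes. Most of the 10 genes thus stood high or low in the same A549 libraries, and the SEs of their log2 fold changes in A549 (0.14 to 0.37) were larger than in H1299 (0.08 to 0.44) for 9 of the 10 genes. PSMB5, PSMB6 and PSMB7 were also highest in wild-type A549 replicate 1. That library held the fewest counts, 16599401. In H1299 wild-type replicate 2, the deepest of its group, was the highest for 8 of the 10 genes, against 33.9% of all genes.

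The wild-type lines differed in more of the 10 genes than the genotypes did. Of the 10 genes 5 were lower in wild-type H1299 than in wild-type A549 and 1 was higher, in a comparison where 33.7% of all genes were lower, 31.8% higher and 65.6% called in all, so their number is close to the background. The line is also confounded here with any difference between the 2 count tables. NLRC5 was lower by a log2 difference of -1.71 (SE 0.33, adjusted p = 0.000528), PSME1 by -1.25 (SE 0.16, adjusted p = 1.55e-05) and PSMB9 by -1.0 (SE 0.30, adjusted p = 0.0102). IRF1 followed at -0.83 (adjusted p = 0.000435) and PSME2 at -0.70 (adjusted p = 0.00342). For these 5 genes every wild-type H1299 library lay below every wild-type A549 library, as for 33.9% of all genes. TAP2 was the exception, 2.56-fold higher in H1299 (log2 1.35, SE 0.12, adjusted p = 4.04e-07), while the other transporter subunit, TAP1, was not called (0.05). PSMB8 (-0.47), PSMB10 (-0.46) and TAPBP (-0.07) were not called either. PSMB9 lost its call without A549 wild-type replicate 1 (-0.63, adjusted p = 0.0503) and with PSMB8-AS1 counts added (-0.51, adjusted p = 0.0652). Genes of 6p, the arm of the MHC, had a median of 0.53 in this comparison, and relative to it PSMB8 (-0.97), TAP1 (-0.46) and TAPBP (-0.58) were lower in H1299 as well (adjusted p = 0.00125, 0.00483 and 0.0018).

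Per transcript length, the PA28 genes led in every group and NLRC5 came last. In wild-type A549, PSME1 stood at 127.3 ± 30.4 RPKM and PSME2 at 93.3 ± 24.3 RPKM (SD, n = 3), and their libraries overlapped. TAPBP followed at 42.1 ± 7.51 RPKM, then PSMB9 (24.6 ± 11.03), PSMB8 (18.8 ± 5.13), TAP1 (14.4 ± 2.21) and TAP2 (14.3 ± 1.68), with overlapping neighbours throughout this stretch. PSMB10 (7.48 ± 3.09) overlapped IRF1 (5.40 ± 1.15), and NLRC5 stood apart at 0.509 ± 0.0917 RPKM. In knockout A549 the order was the same at both ends, while PSMB9 moved from the fourth to the seventh place, at 11.98 ± 5.15 RPKM behind TAP2 (13.6 ± 1.30) and TAP1 (12.9 ± 0.898), both of which it overlapped. In wild-type H1299, PSME2 (57.3 ± 4.85) and PSME1 (53.3 ± 6.37) overlapped at the top, TAPBP (40.0 ± 1.43) and TAP2 (36.6 ± 1.37) came next and did not overlap, and NLRC5 was at 0.152 ± 0.0664 RPKM. In knockout H1299, TAPBP (29.7 ± 3.54) and TAP2 (32.6 ± 3.45) overlapped, and NLRC5 was at 0.0559 ± 0.0316 RPKM. The ranks depend on the transcript length taken. Over all annotated exons PSMB9 took the sixth place in wild-type A549, and PSME1 came before PSME2 in wild-type H1299 (30.1 against 22.5 RPKM) and in knockout H1299 (26.7 against 20.9 RPKM).

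Interferon signalling reaches the 10 genes through receptors, JAK kinases and STAT factors. The lists of related genes as a whole were called at about the rate of all genes, 2 of 77 tested in A549 (2.60% against 2.14% of all genes) and 7 of 74 in H1299 (9.46% against 8.84%), PSME4 apart. Of 18 interferon receptors and signalling genes 16 were tested in each line. None was called in A549 (2 at an unadjusted p under 0.05, 1 by DESeq2) and 2 rose in H1299 (7 at an unadjusted p under 0.05, 3 by DESeq2), JAK1, a kinase that carries the signal of the interferon receptors, among them. JAK1 went from 142.6, 154.4 and 166.8 CPM in wild type to 190.2, 206.6 and 198.9 CPM in the knockout (log2 0.36, SE 0.08, adjusted p = 0.024). It rose without overlap while PSMB9 and TAPBP fell in the same libraries. JAK1 lost its call without wild-type replicates 1 and 2 (0.0563 and 0.0588) and knockout replicates 2 and 3 (0.0758 and 0.0979), and in the fit over all 12 libraries (0.353).

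Of 6 NF-kappaB genes none was called in A549 (2 at an unadjusted p under 0.05, 2 by DESeq2) and 2 rose in H1299 (4 at an unadjusted p under 0.05, 4 by DESeq2), where 8.84% of all genes were called. NFKB1, which encodes p50, went from 55.9, 55.9 and 54.6 to 73.75, 81.53 and 77.04 CPM (log2 0.48, SE 0.07, adjusted p = 0.00543) and kept its call without each library in turn. Centred on the median of its chromosome arm, NFKB1 was at 0.10 and its call was lost (adjusted p = 0.381). REL went from 27.6, 30.4 and 29.6 to 36.7, 37.2 and 35.1 CPM (0.32, SE 0.08, adjusted p = 0.0406), a call lost without any 1 library (0.0572 to 0.114) and with arm centring (0.0837). All 6 log2 fold changes were positive in H1299 (median 0.34) and 5 of 6 were negative in A549 (median -0.42). The difference between the lines passed for NFKB2 (1.23, SE 0.30, adjusted p = 0.0436) and for NFKBIA, the NF-kappaB inhibitor (0.97, SE 0.24, adjusted p = 0.045). NFKB2 was at 103.5, 103.5 and 54.4 CPM in wild-type and 40.8, 57.0 and 45.4 CPM in knockout A549, against 39.4, 43.2 and 38.6 and then 48.2, 62.3 and 45.9 CPM in H1299. Both differences were lost in 10 of 12 fits without 1 library, with adjusted p up to 0.118 for NFKB2 and 0.12 for NFKBIA, and also with limma-voom (0.0543 and 0.0507) and arm centring (0.063 and 0.0574).

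Among 14 loading and trimming partners (B2M, 6 class I heavy chains, TAPBPL, CALR, CANX, PDIA3, ERAP1, ERAP2 and LNPEP), none was called in A549 (1 at an unadjusted p under 0.05, none by DESeq2) and 1 in H1299 (2 at an unadjusted p under 0.05, 1 by DESeq2), near the 8.84% of all genes called there. LNPEP, an aminopeptidase that trims peptides in endosomes, fell there from 150.7, 106.1 and 120.8 to 84.1, 85.4 and 83.5 CPM (log2 fold change -0.58, SE 0.11, adjusted p = 0.0176). Leaving out knockout replicate 2 or 3 ended the call (0.0532 and 0.07). Counting LNPEP, 12 of the 14 log2 fold changes were negative in H1299 (median -0.16) and 11 of 14 were positive in A549 (median 0.13). The invariant class I chain B2M was at 219.5 ± 45.6 CPM in wild-type and 259.2 ± 23.2 CPM in knockout A549, and at 151.3 ± 26.5 and 140.7 ± 8.69 CPM in H1299.

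Of 20 interferon-gamma response genes 12 were tested in A549 and 11 in H1299. In A549 2 were called (5 at an unadjusted p under 0.05, 4 by DESeq2), where 2.14% of all genes were, and in H1299 1 was (1 and 1), where 8.84% were. The guanylate-binding proteins GBP1 and GBP3 rose in A549. GBP1 had 2, 1 and 1 counts in wild type and 26, 55 and 94 in the knockout, from 0.0771 ± 0.0426 to 1.69 ± 0.748 CPM (fitted log2 fold change 4.41, SE 0.60, adjusted p = 0.0177). GBP3 went from 2.14, 1.03 and 1.68 to 6.14, 10.3 and 11.9 CPM (2.54, SE 0.34, adjusted p = 0.0171). Both separated the genotypes, and both lost their call when wild-type replicate 2 (0.11 and 0.0873), knockout replicate 2 (0.0671 and 0.0677) or knockout replicate 3 (0.0579 and 0.0601) was left out. In H1299 GBP3 was at 1.45, 0.889 and 0.801 CPM in wild type and 0.713, 0.330 and 0.879 CPM in the knockout. The difference between the lines for GBP3 was -3.24 (SE 0.54, adjusted p = 0.00841) and passed in all 12 fits that left out 1 library. GBP3 and NLRC5 thus were both higher in knockout A549 without overlap and both had a negative difference. ICAM1, an adhesion molecule, fell in H1299 from 140.5, 107.2 and 131.4 to 81.4, 76.9 and 93.6 CPM (-0.59, SE 0.11, adjusted p = 0.0152), a call lost without wild-type replicate 3 (0.053) and knockout replicate 2 (0.0531).

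Type I interferon response genes gave 1 call. Of 15 genes, 11 were tested in A549 with none called (4 at an unadjusted p under 0.05, none by DESeq2) and 9 in H1299 with 1 called (2 at an unadjusted p under 0.05, 2 by DESeq2), near the 8.84% of all genes called there. In H1299 IFIH1, the RNA sensor MDA5, fell from 17.3, 18.4 and 17.6 to 9.82, 12.7 and 12.6 CPM (log2 fold change -0.61, SE 0.12, adjusted p = 0.0167). Leaving out replicate 3 of either genotype ended the call (0.0524 for wild type and 0.0563 for knockout). In A549 IFIH1 was at 6.50, 5.55 and 5.88 CPM in wild type and 3.22, 3.76 and 4.68 CPM in the knockout, below without overlap though not called.

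**Figure D4:**
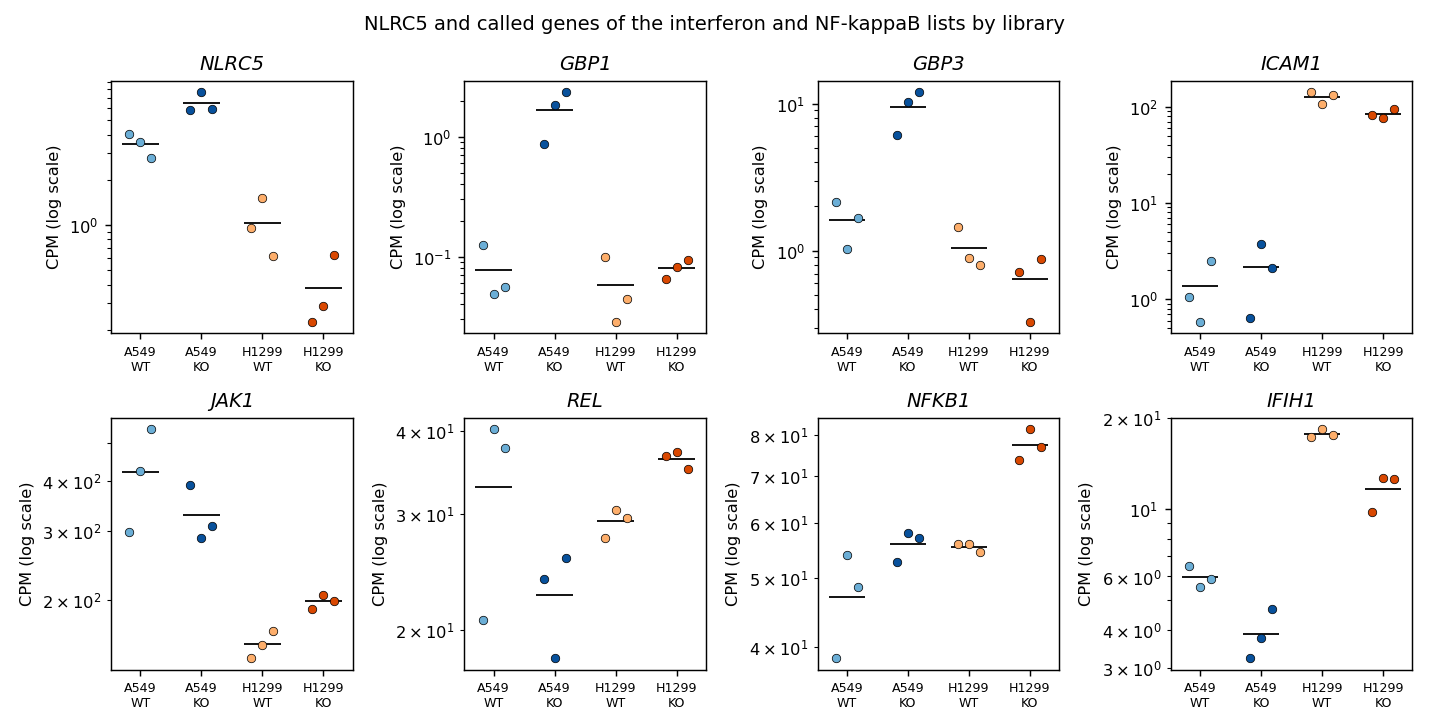
Levels of NLRC5 and of called genes of the interferon and NF-kappaB lists in each library, in CPM on log axes that differ between panels. Points are libraries and lines the mean of 3 libraries. NLRC5, GBP1 and GBP3 are higher in knockout A549, ICAM1 and IFIH1 are lower in knockout H1299, and JAK1, REL and NFKB1 are higher in knockout H1299.

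Between the wild-type lines, 54 of 79 genes tested of the related lists differed, PSME4 apart, among them 13 of the 17 signalling genes. Their share (68.4%) was close to the 65.6% of all genes called in this comparison. STAT3, SOCS3 and JAK1 were lower in H1299 (log2 differences -2.12, -1.67 and -1.45), as were NFKBIA (-2.53), NFKB2 (-1.11), RELA (-0.56) and RELB (-0.54). Of the partners of NLRC5, RFXAP (1.28) and NFYC (0.86) were higher and CIITA (-1.0) and NFYB (-0.51) lower. Among loading genes ERAP1 (1.09), HLA-B (1.22) and the chaperone CALR (0.51) were higher and CANX (-0.77) lower, and among proteasome factors PSME3 was lower (-1.0) and POMP (0.61), PSMG1 (0.40) and PSMG3 (0.46) higher. Of the response genes ICAM1 (6.51), SP110 (1.79), IFIH1 (1.57) and DDX58 (0.92) were higher and APOL6 (-1.59), UBE2L6 (-1.43), OAS3 (-1.58) and IFIT3 (-2.67) lower. All of these had an adjusted p of 0.0409 or less. With arm centring NFKB2 (-0.43, adjusted p = 0.115) and PSMG1 (0.02, adjusted p = 0.869) lost their calls and CALR turned to -0.14 (adjusted p = 0.26). RELB lost its call in 5 fits that left out 1 library, in limma-voom (adjusted p = 0.0575) and without TMM scaling (0.0876), and PSMG3 without A549 wild-type replicate 2 (0.0633).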

How the data were processed

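The authors deposited raw gene counts, a table for each line that holds 59050 human gene symbols and 6 libraries. A stranded mRNA kit was used, per the labels' protocols. The submitters' processing notes name bcl2fastq 2.20.0.422 and the mouse build GRCm38.p6, which does not match the human symbols. Aligner, counting program and strand setting are not given in the sources used here, so reads of overlapping genes may have been assigned to either gene.

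The 10 genes and the lists of related genes were chosen with earlier results of these data known. Every gene of the 10 is named, as are their 3 constitutive counterparts, PSME4 and, per related list and comparison, up to 4 called genes with the smallest adjusted p; the epithelial markers were added after their values were seen, and 1 gene of the signalling list is not reported here. Symbols were matched to GENCODE 29, where 56159 (95.1%) were found once.

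Counts were analysed in R 4.3.3 with edgeR 4.0.16: filterByExpr with a minimum count of 10, TMM scaling and the quasi-likelihood test over all genes kept, 20093 in A549, 20194 in H1299 and 22635 in the fit over 12 libraries, which gave the difference (H1299 minus A549), the average and the wild-type comparison. All 10 genes passed filterByExpr in each of these fits, while NLRC5 did not pass the alternative filter at 1 CPM in 3 libraries in H1299. Levels in CPM used TMM over the 12 libraries. RPKM used the principal transcript. Ratios were tested by exact permutation. Alternatives were RLE size factors, no TMM, no filter, 1 CPM in 3 libraries, DESeq2 1.42.0, limma-voom (limma 3.58.1), centring within chromosome arms, the 12-library fit, each library left out and, added after the data were examined, the counts of overlapping same-strand genes. The fits were checked on simulated counts. Promoters came from RefSeq GRCh38.p14.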

Additional observations from a re-analysis of the deposited data

Results flagged for a closer look

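The difference of the knockout effect between the lines was tested for NLRC5 and was -2.33 (log2, H1299 minus A549, SE 0.50, adjusted p = 0.0245 in edgeR's quasi-likelihood test). NLRC5 rested on 14 to 53 counts per wild-type and 7 to 20 counts per knockout H1299 library. The same test gave 0.91 for PSME4 (SE 0.20, adjusted p = 0.0277), the gene that was knocked out, whose RNA was at 11.5% of wild type in A549 and 21.7% in H1299. The PSME4 difference was past the threshold in 4 of 12 fits that left out 1 library (0.79 to 1.06), and centring within chromosome arms gave 0.42 (adjusted p = 0.246). Groups of 3 libraries are too small for the test of single outlying samples.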

How the results depend on the processing

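Counts of genes past the threshold in the knockout comparisons moved with the tool. In A549 the count over the 10 genes was 0, and 1 without the filter and 2 with DESeq2. In H1299 it was 2, and 3 with DESeq2, 1 with arm centring, 1 with overlapping same-strand counts added and 0 in the 12-library fit. The leave-one-out range was 0 to 2. In edgeR, IRF1 also passed in H1299 at 1 CPM in 3 libraries (adjusted p = 0.0462) and NLRC5 without the filter (0.00245). The average effect had 0, and 1 without the filter and 1 with DESeq2 (leave-one-out 0 to 2), and the difference 1 (leave-one-out 0 to 1). Between wild types it was 6, and 9 with arm centring (leave-one-out 5 to 8). Calls of the related lists in H1299 lost in the 12-library fit included JAK1, REL, ICAM1, LNPEP and IFIH1 (adjusted p = 0.353, 0.502, 0.46, 0.0774 and 0.0627).

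Over the related lists A549 had 2 calls, and 8 without the filter, 1 at 1 CPM, 7 with DESeq2 and 8 in the 12-library fit (leave-one-out 0 to 5). H1299 had 7, and 13 without the filter, 12 with DESeq2 and 1 in the 12-library fit (2 to 6). The difference had 3, and 8 without the filter, 5 with DESeq2 and 1 with arm centring (1 to 6), and the average 4, and 7 with DESeq2 (1 to 8). Over all genes A549 had 430, and 1275 without the filter, 1543 with DESeq2, 235 with arm centring and 1772 in the 12-library fit (10 to 1016). H1299 had 1786, and 3077 without the filter and 559 in the 12-library fit (471 to 1469). The difference had 788, and 1239 without the filter, 1706 with DESeq2 and 430 with arm centring (310 to 1359), and the average 975, and 2090 with DESeq2 and 618 with arm centring (306 to 2265).

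Signs turned in 31 fits of single values, 30 of them with p of 0.05 or more. The other was TAP1 between wild types, -0.46 with arm centring (adjusted p = 0.00483). PSMB10 turned to 0.04 in H1299 with arm centring, and its difference to 0.01 at 1 CPM, 0.10 with arm centring and 0.12 with overlapping counts added. Between wild types TAPBP turned to 0.03 without TMM and CALR to -0.14 with arm centring. Leaving out single libraries gave -0.04 to 0.39 for PSMB8, -0.41 to 0.22 for PSMB10, -0.04 to 0.39 for PSME2, -0.16 to 0.01 for TAP2 and -0.18 to 0.06 for TAPBP in A549, and -0.22 to 0.04 for PSMB10 in H1299. It gave -0.33 to 0.27 (PSMB10) and -0.14 to 0.08 (TAP1) for the difference, and -0.06 to 0.11 (TAP1) and -0.03 to 0.21 (PSMB6) between wild types. The ratio of PSMB10 to PSMB7 ran from -0.12 to 0.28 in A549 and from -0.18 to 0.03 in both lines. That of PSMB9 to PSMB6 in both lines ran from -0.61 to -0.38. Its exact permutation p, adjusted over the 3 ratios, was 0.015 to 0.225, against 0.075 with all libraries. The causes were not tested. In H1299, NLRC5 had 7 to 53 counts per library, which limits its precision. No paired analysis was possible because the labels give the libraries no shared replicate numbers.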
